A study of Mus musculus with 6 samples.

Results

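The 10 genes examined here encode the sensors with which macrophages detect lipopolysaccharide, bacterial lipoproteins and nucleic acids. They are *Cd14*, *Tlr4*, *Ly96*, *Tlr2*, *Tlr7*, *Tlr8*, *Tlr9* and *Tlr13*, with the signalling adaptor *Myd88* and the receptor chaperone *Unc93b1*. They were chosen by gene symbol, with the results of NaCl against control already known, out of 15903 genes tested. All 10 exceeded the minimum total count of 10 over the 6 libraries. Because of this choice, their fold changes and p-values describe the fit over all genes and are no independent evidence about the list.

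RNA was sequenced from bone-marrow-derived macrophages (BMDMs) of 3 Cx3cr1GFP mice on a C57BL/6J background, whose *Cx3cr1* locus holds a GFP sequence in both groups. Marrow cells were grown with 10 ng/ml M-CSF, and cells of each mouse either stayed unstimulated (control, n = 3) or received 62 mM NaCl in excess of that in the medium for 24 h (NaCl, n = 3). The age and sex of the mice are not given in the sources used here, and no library with another osmolyte was analysed here. Adherent cells were used, so the libraries describe cells that stayed attached. In such bulk samples, fewer cells expressing a gene and less RNA of it per cell cannot be told apart.

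Toll-like receptors (TLRs) are membrane proteins that bind microbial molecules and pass the signal on through adaptors such as MyD88 to the transcription factors NF-kB and IRF. CD14 captures lipopolysaccharide and hands it to the complex of TLR4 and MD-2, the product of *Ly96*. TLR2 sits at the cell surface and senses bacterial lipoproteins, whereas TLR7, TLR8, TLR9 and TLR13 sense nucleic acids in endosomes, to which UNC93B1 escorts them. Mouse TLR13 recognizes bacterial ribosomal RNA, TLR9 unmethylated CpG DNA, and TLR7 single-stranded RNA.

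The libraries held between 4088065 (NaCl replicate 3) and 20123570 (control replicate 3) counts on genes, so the least precise values are those of NaCl replicate 3. All 7 macrophage markers examined were detected, and their summed level in CPM (counts scaled to the size of each library) was 14936 to 16238 in control and 23328 to 30885 in NaCl, chiefly through the lysozyme gene *Lyz2*. The log2 fold change was above 0 for 3 of these markers and below 0 for 4, with a median of -0.06. Among 7 monocyte markers, 1 was called higher in edgeR without the mouse in the fit, *Ifitm6*, and with the mouse also *F13a1*. Of these 7, 3 had a log2 fold change above 0 and 4 below it, with a median of -0.26. Among 9 neutrophil markers 0 were called higher, in edgeR with or without the mouse and in DESeq2, with 1 at an unadjusted p under 0.05 in the fit without the mouse. With the mouse in the fit *Ngp* and *Mpo*, both neutrophil granule genes, were lower. The summed neutrophil level was 201 to 431 CPM in control and 214 to 322 CPM in NaCl. Of the 7 dendritic cell markers, *Flt3*, *Zbtb46*, *Xcr1*, *Clec9a* and *Siglech* stayed under 1 CPM in every library. The other 2 were *Ccr7*, at 1.26 to 3.26 CPM, and *Itgax*, an integrin that macrophages also express, at 744 to 1024 CPM, so that the list summed to 785 to 991 CPM in control and 747 to 1027 CPM in NaCl. The B cell genes *Cd79a* and *Cd79b* summed to 2.90 to 10.4 CPM, and *Ms4a1* and *Pax5* had at most 1 count in any library. Markers of stromal cells summed to at most 4.34 CPM in any library, and the 4 erythroid markers had too few counts to be tested. The part of these cells in the results was not tested.

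Of the 10 genes, *Cd14* alone passed the threshold without the mouse in the fit, and it was higher in NaCl. Once the mouse entered as a replicate block, *Cd14*, *Tlr2*, *Tlr7* and *Tlr9* were higher and *Tlr13* was lower. *Tlr4*, *Tlr8*, *Myd88* and *Unc93b1* passed in neither fit, and nor did *Ly96*, which was lower in 3 of 3 mice. The share of all genes called in edgeR's quasi-likelihood test was 0.654% without the block, of which 0.478% were higher and 0.176% lower, and 8.90% with it (4.60% and 4.30%). The counts of 1 higher gene without the block, and of 4 higher and 1 lower with it, stand beside those shares with no test. In DESeq2 without the block 1 of the 10 was higher and 0 were lower, against 1.54% and 0.975% of all genes (2.52% in all). At an unadjusted p under 0.05 in edgeR without the block there were 6 of the 10, against 2010 of all 15903 genes. The median log2 fold change of the 10 was 0.22, against -0.01 over all genes tested.

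**Figure D1:**
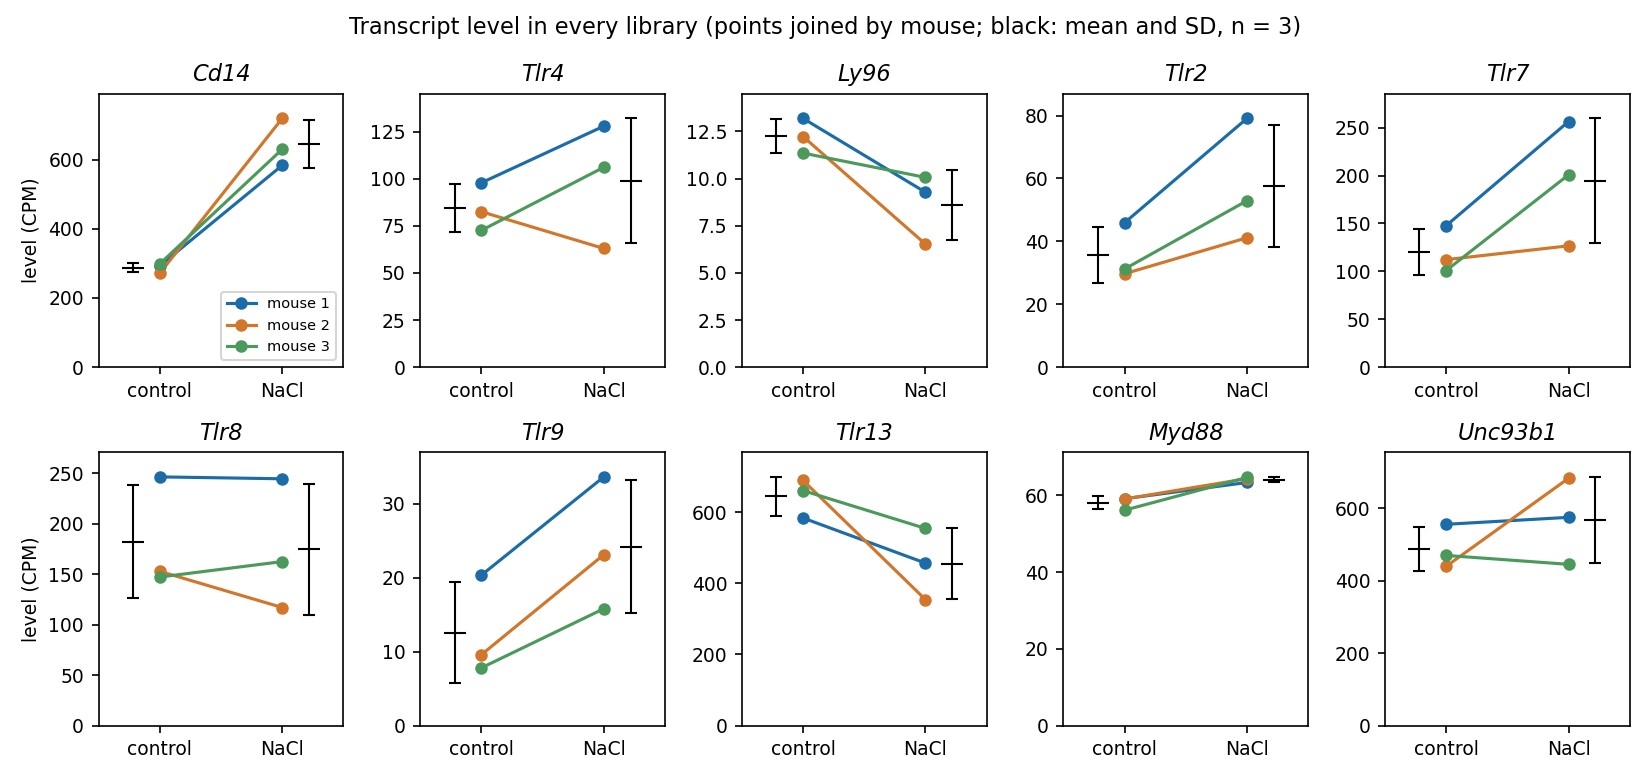
Transcript level in CPM, counts scaled to library size, of the 10 genes in control and NaCl libraries, with a line joining the libraries of each mouse and black bars for the mean and SD of 3 replicates. The lines of Cd14, Tlr2, Tlr7, Tlr9 and Myd88 rise in 3 of 3 mice, those of Ly96 and Tlr13 fall in 3 of 3, and those of Tlr4, Tlr8 and Unc93b1 run in both directions.

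The first question was whether the lipopolysaccharide receptor complex moved as a unit. *Cd14* (ENSMUSG00000051439.8, chromosome 18) was at 293, 272 and 299 CPM in control replicates 1, 2 and 3 and at 583, 719 and 630 CPM in NaCl replicates 1, 2 and 3. The lowest NaCl library was above the highest control library, and the controls were close to each other. *Cd14* rose from 288 ± 14.2 to 644 ± 69.0 CPM (SD, n = 3 each), which is 1.16 on the log2 scale with a standard error (SE) of 0.13 (adjusted p = 0.00699 in edgeR). Mouse by mouse, the log2 ratio of NaCl to control came to 0.99, 1.403 and 1.08. The counts behind these values were 2576 to 5922 per library in control and 2629 to 7931 in NaCl. With the block this change was also 1.16 (SE 0.12, adjusted p = 3.04e-07 in edgeR). In fits without the block that each left out 1 library, the log2 fold change stayed between 1.08 and 1.23. *Cd14* did not pass in edgeR without control replicate 2 (adjusted p = 0.0923), control replicate 3 (0.0737) or NaCl replicate 3 (0.0557), and these 3 fits called 8, 9 and 9 higher genes among all genes.

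*Tlr4* (ENSMUSG00000039005.14, chromosome 4), the signalling receptor for lipopolysaccharide, was at 97.9, 82.5 and 72.6 CPM in control and at 128, 63.0 and 106 CPM in NaCl replicates 1, 2 and 3. The groups overlapped, since NaCl replicate 2 was the lowest of the 6 libraries and NaCl replicates 1 and 3 were the highest. Its log2 change came to 0.23 (SE 0.24, 95% interval -0.29 to 0.76, adjusted p = 0.735 in edgeR), an interval that covers both directions. Mice 1 and 3 had log2 ratios of 0.39 and 0.55, and mouse 2 one of -0.39. In the fit with the block and without mouse 2, *Tlr4* was higher, with a log2 fold change of 0.47 (adjusted p = 0.000379 in edgeR). With the block and all mice it was 0.18 (adjusted p = 0.506 in edgeR).

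*Ly96* (ENSMUSG00000025779.11, chromosome 1), which encodes the lipopolysaccharide-binding partner of TLR4, was at 13.2, 12.2 and 11.3 CPM in control and at 9.28, 6.53 and 10.1 CPM in NaCl. Every NaCl library was below every control library. The fitted log2 change was -0.53 (SE 0.21, adjusted p = 0.336 in edgeR) and, with the block, -0.55 (SE 0.18, adjusted p = 0.0626 in edgeR). In the fit with the block and without mouse 3, the adjusted p from edgeR was 0.0361 at a log2 fold change of -0.70. With the block and without mouse 2 the change was -0.35 (adjusted p = 0.321 in edgeR), and without the block and NaCl replicate 2 it was -0.34 (adjusted p = 0.543 in edgeR). *Ly96* rested on 42 counts in NaCl replicate 3 and on 72 to 225 counts in the other 5 libraries.

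Compared within each library, so that the scaling of libraries drops out, the log2 ratio of *Cd14* to *Ly96* CPM was 4.47, 4.47 and 4.72 in control and 5.97, 6.78 and 5.97 in NaCl. The ratio of *Cd14* to *Tlr4* was 1.58, 1.72 and 2.04 in control and 2.19, 3.51 and 2.57 in NaCl. The log2 ratio of *Tlr4* to *Ly96* lay between 2.68 and 2.89 in control and between 3.27 and 3.79 in NaCl. In each of these 3 ratios no control library reached the level of an NaCl library. Other ratios were looked at too. Those of *Cd14* to *Tlr2* and of *Tlr9* to *Tlr13* overlapped between the groups, and those of *Tlr7* to *Tlr8* and to *Tlr13* did not. The ratios were chosen after the values were seen and are given with no test.

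*Tlr2* (ENSMUSG00000027995.11, chromosome 3), the lipoprotein receptor, was at 45.9, 29.7 and 31.2 CPM in control and at 79.1, 41.2 and 52.9 CPM in NaCl replicates 1, 2 and 3. Mouse 1 had the highest level in both groups, and its control library lay above NaCl replicate 2. From control to NaCl, mice 1, 2 and 3 had log2 ratios of 0.78, 0.47 and 0.76. On the log2 scale the difference was 0.70 (SE 0.25, adjusted p = 0.288 in edgeR), and with the block it was 0.67 (SE 0.13, adjusted p = 0.000728 in edgeR). *Tlr2* passed with the block also when each mouse was left out, with adjusted p-values from edgeR up to 0.0283. Without the block, leaving out NaCl replicate 1 took the change to 0.40 (adjusted p = 0.397 in edgeR), and over the 6 fits that each left out 1 library it ran from 0.40 to 0.93.

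**Figure D2:**
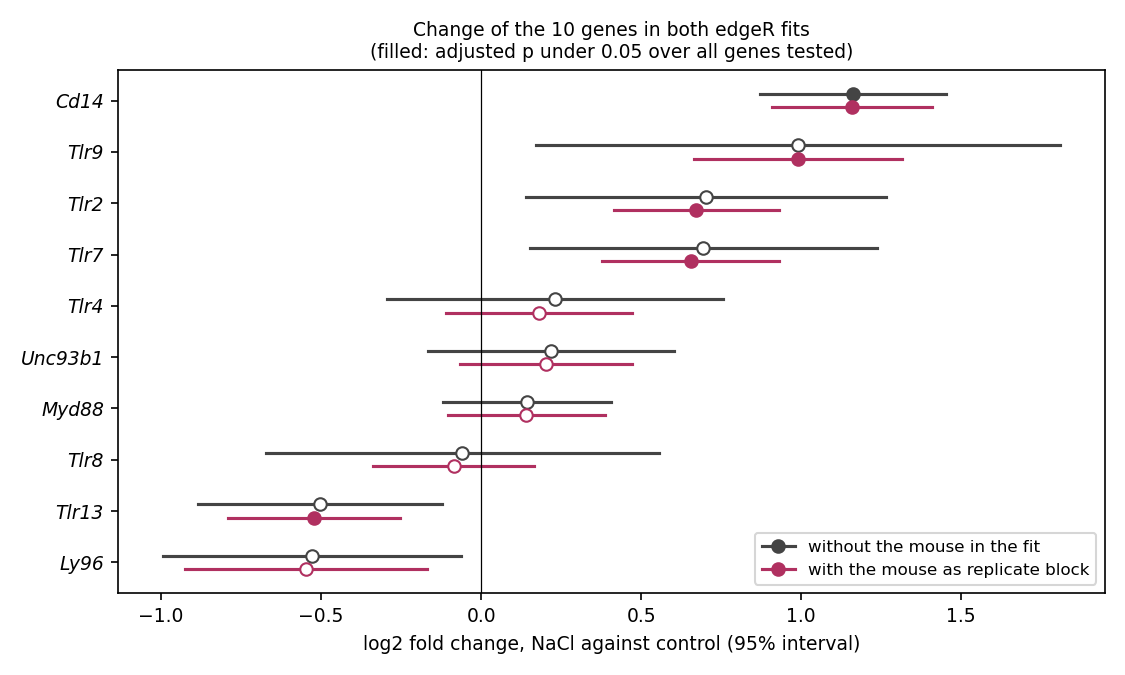
Log2 fold change of NaCl against control (horizontal axis) with its 95% interval for the 10 genes, in edgeR without the mouse (grey) and with the replicate block (red), filled where the adjusted p over all genes was under 0.05. The estimates nearly coincide between fits, while the interval of Tlr9 narrows from 0.17 to 1.81 without the block to 0.67 to 1.31 with it.

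Among the endosomal receptors the changes ran in opposite directions. *Tlr9* (ENSMUSG00000045322.11, chromosome 9), the sensor of CpG DNA, was at 20.4, 9.60 and 7.82 CPM in control and at 33.6, 23.1 and 15.8 CPM in NaCl. Each mouse was higher in NaCl than in control, but control replicate 1 was above NaCl replicate 3, so the groups overlapped. The log2 ratio within mice 1, 2 and 3 was 0.72, 1.25 and 1.00. The log2 change was 0.99 in both fits, with a SE of 0.37 and an adjusted p of 0.305 without the block and of 0.16 and 0.000118 with it, both from edgeR. Leaving out 1 library without the block moved it between 0.69 (without NaCl replicate 1) and 1.51 (without control replicate 1), and *Tlr9* passed in none of these 6 fits. With the block and 1 mouse left out it ran from 0.84 to 1.16 and passed each time in edgeR. *Tlr9* rested on 66 counts in NaCl replicate 3 and 301 in NaCl replicate 1.

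*Tlr7* (ENSMUSG00000044583.14, chromosome X), a sensor of single-stranded RNA, was at 148, 112 and 101 CPM in control and at 256, 127 and 201 CPM in NaCl. NaCl replicate 2 lay below control replicate 1, and the groups overlapped. From control to NaCl, mice 1, 2 and 3 had log2 ratios of 0.79, 0.17 and 0.99, so mouse 2 changed least. Its log2 change came to 0.69 (SE 0.24, adjusted p = 0.279 in edgeR), and 0.65 with the block (SE 0.13, adjusted p = 0.00183 in edgeR). With the block and each mouse left out in turn it lay between 0.49 and 0.90, with adjusted p-values from edgeR up to 0.0425. Without the block and NaCl replicate 1 it was 0.44 (adjusted p = 0.361 in edgeR).

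*Tlr8* (ENSMUSG00000040522.6) lies next to *Tlr7* on chromosome X on the same strand, with 40599 bases between their annotated ends. It was at 247, 153 and 147 CPM in control and at 245, 117 and 163 CPM in NaCl. In both groups mouse 1 was the highest, and the groups overlapped. The fitted log2 change was -0.06 (SE 0.27, 95% interval -0.67 to 0.55, adjusted p = 0.960 in edgeR), and -0.09 with the block (95% interval -0.34 to 0.17, adjusted p = 0.756 in edgeR). Within each library the log2 ratio of *Tlr7* to *Tlr8* CPM was -0.74, -0.45 and -0.55 in control and 0.07, 0.11 and 0.30 in NaCl. *Tlr7* counts were thus below those of its neighbour in every control library and above them in every NaCl library, a comparison chosen after the values were seen and given with no test.

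*Tlr13* (ENSMUSG00000033777.5, chromosome X), the receptor for bacterial ribosomal RNA, was at 583, 689 and 660 CPM in control and at 457, 354 and 554 CPM in NaCl. Every NaCl library was below every control library. The log2 ratio within mice 1, 2 and 3 was -0.35, -0.96 and -0.25. On the log2 scale the difference was -0.50 (SE 0.17, adjusted p = 0.263 in edgeR), and with the block *Tlr13* fell by 0.52 on the log2 scale (SE 0.13, adjusted p = 0.0102 in edgeR). With the block and without mouse 1 the adjusted p from edgeR was 0.0609, at a log2 fold change of -0.60. *Tlr13* passed without mouse 2 (log2 fold change -0.29, adjusted p = 0.0328 in edgeR) and without mouse 3 (-0.65, adjusted p = 0.00371 in edgeR).

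*Unc93b1* (ENSMUSG00000036908.18, chromosome 19), the chaperone that carries the endosomal receptors, was at 556, 440 and 470 CPM in control and at 575, 683 and 445 CPM in NaCl. The highest level was that of NaCl replicate 2 and NaCl replicate 3 was the second lowest of the 6 libraries, so the groups overlapped. The log2 change was 0.22 (SE 0.17, 95% interval -0.17 to 0.60, adjusted p = 0.657 in edgeR). *Myd88* (ENSMUSG00000032508.9, chromosome 9), the adaptor shared by these receptors, was at 59.1, 59.1 and 56.1 CPM in control and at 63.4, 64.4 and 64.7 CPM in NaCl. Its groups did not overlap, but the log2 fold change was 0.14 (SE 0.12, 95% interval -0.12 to 0.40, adjusted p = 0.669 in edgeR), an interval that in this fit covers both directions. Of the exonic bases of *Myd88*, 11.3% overlap *Acaa1a* on the opposite strand, and without strand information reads from there cannot be told apart. None of the exonic bases of the other 9 genes overlapped another gene, and 0% of their 75-base windows occurred in another annotated transcript.

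Counted over the 10 genes, *Cd14* and *Myd88* were higher and *Ly96* and *Tlr13* lower without overlap of the groups, against 8.92% and 10.1% of all genes tested. In 3 of 3 mice 5 genes were higher and 2 were lower, against 20.1% and 23.4% of all genes. The libraries of mouse 1 held the highest levels of *Tlr2*, *Tlr4*, *Tlr7*, *Tlr8* and *Tlr9* in both groups, against 21.6% of all genes for which mouse 1 was highest in both. The summed level of the 7 monocyte markers was also highest in mouse 1. It was 324, 214 and 183 CPM in control and 382, 202 and 225 CPM in NaCl for mice 1, 2 and 3. *Ccr2*, the chemokine receptor of inflammatory monocytes, is one of these markers, with 211, 83.3 and 98.2 CPM in control and 258, 38.7 and 99.2 CPM in NaCl. The first place of mouse 1 in the sum rested on *Ccr2*. Without this gene the rest of the list summed highest in mouse 2 in both groups. The part of these markers in the levels of the receptors was not tested.

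Upstream sequence is shown for the receptors that changed with the block and are in the table of promoters used, *Tlr2*, *Tlr9* and *Tlr13*, and for *Tlr8*, which did not pass. The sequences are those of RefSeq on GRCm38.p6, read 5′ to 3′ on the strand of the gene, and each stops before the first base that GENCODE M21 annotates as transcribed. They cover chr3:83841768-83841858 (minus strand), chr9:106222348-106222597 (plus), chrX:106143025-106143203 (plus) and chrX:167264330-167264579 (minus). Capitals mark matches, on either strand, to letters bound by factors of this pathway and of macrophages: GGG and CC with any 5 bases between them for NF-kB, TGANTCA for AP-1, GAGGAA as the core for PU.1, and GAAA, any 2 bases and GAAA for IRF. The letters were chosen after the values were seen.
Tlr2: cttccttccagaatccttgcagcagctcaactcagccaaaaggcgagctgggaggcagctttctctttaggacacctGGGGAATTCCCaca
Tlr9: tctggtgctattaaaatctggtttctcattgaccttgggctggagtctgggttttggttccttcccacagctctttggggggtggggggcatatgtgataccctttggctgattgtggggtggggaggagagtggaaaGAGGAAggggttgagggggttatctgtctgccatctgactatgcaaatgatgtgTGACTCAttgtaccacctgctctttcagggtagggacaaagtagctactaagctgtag
Tlr13: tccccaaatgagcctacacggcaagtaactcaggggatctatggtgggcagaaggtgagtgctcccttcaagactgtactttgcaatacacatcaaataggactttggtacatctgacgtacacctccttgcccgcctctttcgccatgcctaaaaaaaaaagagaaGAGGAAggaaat
Tlr8: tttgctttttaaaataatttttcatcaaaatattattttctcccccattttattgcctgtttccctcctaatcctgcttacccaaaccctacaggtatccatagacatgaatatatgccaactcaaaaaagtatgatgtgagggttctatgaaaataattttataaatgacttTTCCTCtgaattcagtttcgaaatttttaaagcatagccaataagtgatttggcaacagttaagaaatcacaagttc

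Of the 10 genes, 5 were in the table, including *Myd88*, and the 250 bases before each listed start were searched. The listed starts of *Tlr2*, *Tlr13* and *Myd88* lie within their genes as annotated. Of the 250 bases, 91, 179 and 0 lie before the annotated gene, and distances below are to the listed start. The *Tlr2* matches span bases 78 to 88 of the 91 shown, and the *Tlr13* match bases 168 to 173 of the 179 shown. *Tlr2* held a pair of overlapping NF-kB matches, beginning 173 and 172 bases before the start, and 45.8% of all 32851 promoters held such a match. *Tlr9* held an AP-1 match (6.75% of all promoters) 58 bases and a PU.1 match (23.3%) 112 bases before the start. *Tlr13* and *Tlr8*, of which the former was lower and the latter did not pass, each held a PU.1 match, 83 and 77 bases before the start. *Myd88* held the only IRF match of the 5 (2.98% of all promoters), which is not shown. A match describes the letters alone.

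The receptors were next set against each other by level, scaled per kilobase of annotated exon. In control, *Tlr13* was the most abundant TLR at 150 ± 12.7 CPM per kilobase, above *Tlr8* (50.8 ± 15.5), *Tlr7* (29.5 ± 5.98), *Tlr4* (15.2 ± 2.29), *Tlr2* (11.8 ± 2.97) and *Tlr9* (3.62 ± 1.95, SD, n = 3). The means of *Tlr4* and *Tlr2* lay within their summed SDs of each other, as were *Tlr8* and *Tlr7*, and *Tlr13* was farther from the rest. *Cd14* (166 ± 8.20) and *Unc93b1* (161 ± 19.9) were close to *Tlr13*, and *Myd88* was at 22.6 ± 0.661 and *Ly96* at 12.0 ± 0.901 CPM per kilobase. The control mean of *Cd14* was already the highest of the 10 genes, though within the SD of *Unc93b1*. In NaCl *Cd14* reached 372 ± 39.8 CPM per kilobase and again led the 10 genes, and *Tlr13* was at 106 ± 23.2.

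As a share of the summed level per kilobase of the 10 TLRs tested, *Tlr13* made up 44.0%, 57.3% and 57.8% in control and 33.2%, 43.0% and 45.4% in NaCl replicates 1, 2 and 3. These groups overlapped, since NaCl replicate 3 was above control replicate 1. *Tlr7* made up 11.7%, 9.84% and 9.32% in control and 19.6%, 16.2% and 17.3% in NaCl, and here the groups did not overlap. The share of *Tlr2* was 4.13% ± 0.735 in control and 7.17% ± 1.01 in NaCl, and that of *Tlr8* was 17.7% ± 4.01 and 18.1% ± 2.83 (SD, n = 3). These shares sum to a fixed total, so the fall of the most abundant receptor raises the others, and they are given with no test.

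**Figure D3:**
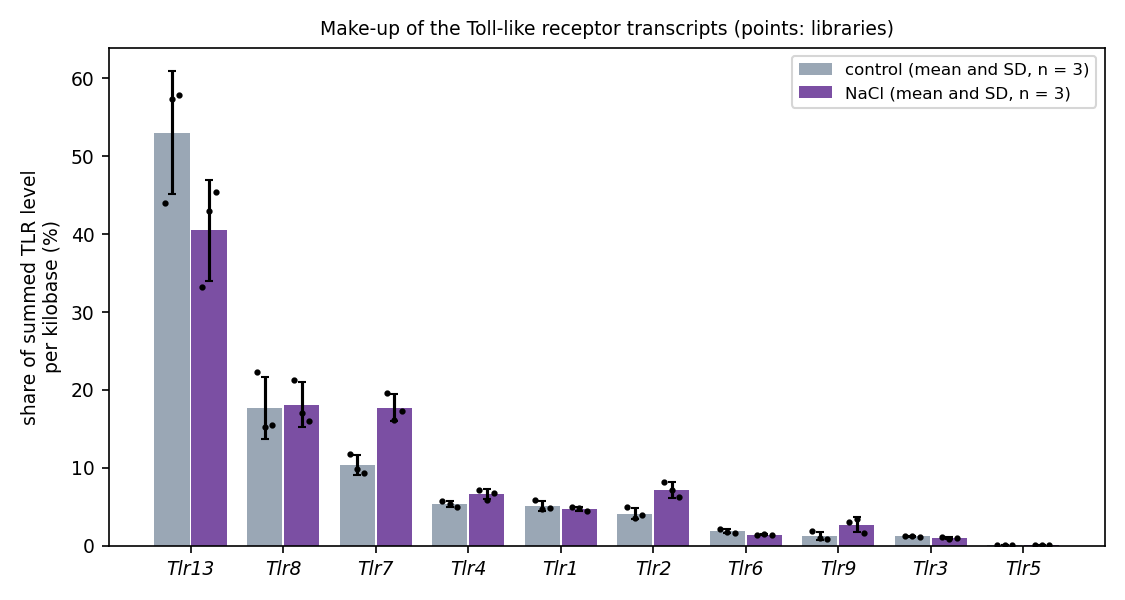
Share of each Toll-like receptor in the summed level per kilobase of the 10 receptors tested (vertical axis, percent), as bars for the mean, error bars for the SD of 3 replicates and points for the libraries. Tlr13 is the largest share in both groups, at 53.1% in control and 40.5% in NaCl, and Tlr7 goes from 10.3% to 17.7%.

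The other genes of the pathway were then examined by role, from lists written with earlier results of these data known. The counts of every list stand with no test beside the shares of all genes called. These were 0.654% in edgeR without the block, 8.90% with it (4.60% higher, 4.30% lower) and 2.52% in DESeq2. At an unadjusted p under 0.05 in edgeR without the block there were 2010 of all 15903 genes. Of 9 other TLRs and co-receptors 7 were tested, and 0 passed in edgeR without the block and 0 in DESeq2, with 1 at an unadjusted p under 0.05 in edgeR. With the block *Tlr6*, which pairs with TLR2 to bind diacylated lipoproteins, was lower, from 19.6 ± 4.38 to 13.6 ± 2.66 CPM (log2 fold change -0.54, adjusted p = 0.0329 in edgeR). *Tlr1*, the other partner of TLR2, measured 49.1 ± 9.66 CPM in control against 41.6 ± 10.9 CPM in NaCl (adjusted p = 0.695 in edgeR without the block). In mice 1, 2 and 3 the log2 ratio of *Tlr6* was -0.62, -0.79 and -0.14, where that of *Tlr2* was positive. The RNA sensor *Tlr3* and the TLR4-like receptor *Cd180* with its partner *Ly86* did not pass in either fit, with log2 fold changes from -0.37 to -0.34. *Tlr11* and *Tlr12* had 6 and 5 counts in all 6 libraries together and were not tested.

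Of 13 genes for folding, transport and the endosome, 0 passed without the block and 0 in DESeq2, with 2 at an unadjusted p under 0.05 in edgeR. With the block *Cnpy4*, a chaperone cofactor for TLRs, and *Pld4*, an endosomal nuclease that limits TLR9 ligands, were higher, and *Hsp90b1*, the endoplasmic reticulum chaperone that folds TLRs, was lower. *Cnpy4* went from 22.8 ± 3.31 to 32.2 ± 2.76 CPM, *Pld4* from 394 ± 85.5 to 512 ± 105 CPM and *Hsp90b1* from 603 ± 63.5 to 420 ± 82.6 CPM, with adjusted p-values from edgeR with the block of 0.0225, 0.0383 and 0.0110. *Cnpy3*, the established cofactor of *Hsp90b1* for TLRs, measured 85.8 ± 2.86 CPM in control against 87.0 ± 4.87 CPM in NaCl.

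Of 5 further adaptors, 0 passed without the block and 0 in DESeq2, with 2 at an unadjusted p under 0.05 in edgeR. With the block *Pik3ap1*, which links TLRs to phosphoinositide 3-kinase, was lower, from 798 ± 71.5 to 587 ± 48.3 CPM (adjusted p = 0.0135 in edgeR). *Ticam1*, the TRIF adaptor of TLR3 and TLR4, was lower in 3 of 3 mice but did not pass in either fit (adjusted p = 0.458 and, with the block, 0.180 in edgeR). Among 16 signalling kinases and ligases, 0 passed without the block, with 3 at an unadjusted p under 0.05 in edgeR. *Ikbkg*, which encodes the NEMO subunit of the IkB kinase, was lower in DESeq2 and with the block, from 149 ± 16.6 to 93.5 ± 8.01 CPM (adjusted p = 0.00279 in DESeq2 and 0.000602 in edgeR with the block). *Tab3*, an adaptor of the kinase TAK1, was lower with the block (adjusted p = 0.0361 in edgeR). Of 10 genes of NF-kB and IRF factors, 0 passed in any of these 3 fits and 0 had an unadjusted p under 0.05 in edgeR without the block.

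Of 19 inhibitors of the pathway, 0 passed in edgeR without the block, with 3 at an unadjusted p under 0.05, and 2 were higher in DESeq2 and 3 with the block. *Nfkbid*, an IkB protein of the nucleus, went from 33.4 ± 7.41 to 62.4 ± 9.85 CPM (log2 fold change 0.91, adjusted p = 2.99e-05 in edgeR with the block). *Nfkbiz*, another nuclear IkB protein that both represses and activates NF-kB targets, went from 11.3 ± 4.48 to 23.2 ± 1.98 CPM (log2 fold change 1.08, adjusted p = 9.68e-05 in edgeR with the block). Both passed in DESeq2 too, with adjusted p-values of 0.00273 and 0.00817. *Socs3*, a feedback inhibitor of cytokine signalling, had a mean of 22.5 counts per library and passed with the block (adjusted p = 0.0379 in edgeR). The classical feedback genes *Nfkbia* and *Tnfaip3* did not pass, at log2 fold changes of 0.26 and -0.37.

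**Figure D4:**
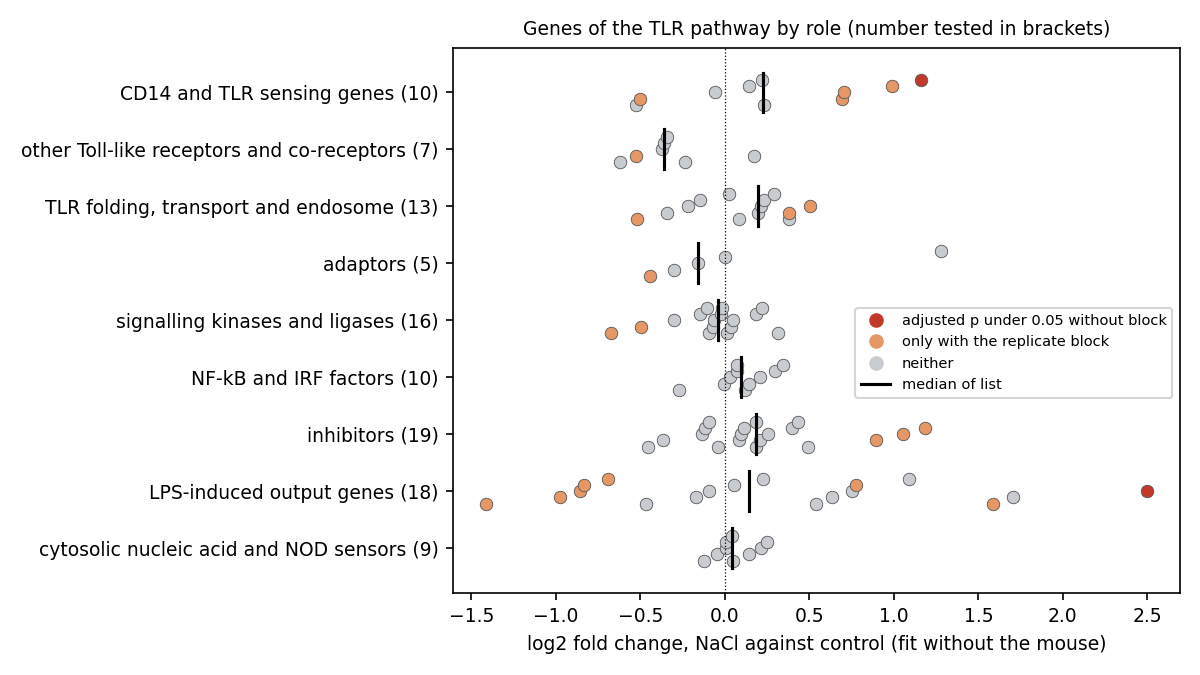
Log2 fold change of NaCl against control from edgeR without the mouse (horizontal axis) for each tested gene of the pathway, in rows by role, with a vertical bar for the median of the row. Genes past the threshold without the block (Cd14 and Cxcl10) are red, those that passed only with the block are orange and the rest are grey. The medians of the rows lie between -0.36 and 0.22.

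Of 24 genes that lipopolysaccharide induces in macrophages 18 were tested, and they did not move in 1 direction. At an unadjusted p under 0.05 in edgeR without the block there were 9 of the 18, against 2010 of all 15903 genes. Without the block *Cxcl10*, a chemokine, was higher, DESeq2 called 2 higher and 1 lower, and with the block 3 were higher and 5 were lower. Of all genes, 0.478% were higher without the block, 1.54% higher and 0.975% lower in DESeq2, and 4.60% and 4.30% with the block. *Cxcl10* measured 0.733 ± 0.153 CPM in control against 3.91 ± 1.65 CPM in NaCl (adjusted p = 0.0340 in edgeR without the block), and rested on 7 to 13 counts per library in control and 9 to 60 in NaCl. The cytokine gene *Tnf* went from 10.7 ± 2.54 to 19.1 ± 9.05 CPM, and *Ptgs2*, which encodes the inducible prostaglandin synthase, from 2.33 ± 0.770 to 7.74 ± 5.57 CPM (adjusted p = 0.00280 and 9.77e-05 in edgeR with the block). The genes lower with the block were the co-stimulatory molecules *Cd40*, *Cd80* and *Cd86*, the scavenger receptor *Marco* and the siderophore binder *Lcn2*. *Cd40* went from 12.8 ± 2.44 to 7.69 ± 2.28 CPM, *Cd80* from 10.8 ± 1.57 to 5.93 ± 1.59 CPM and *Lcn2* from 31.2 ± 11.9 to 17.4 ± 2.17 CPM. *Cxcl10*, *Ptgs2*, *Cd86*, *Marco* and *Socs3* had a mean under 50 counts per library, and all of these but *Cxcl10* are named after their values were seen. *Il6*, *Il12a*, *Il12b*, *Il23a* and *Nos2* had between 4 and 8 counts in all 6 libraries together and *Ifnb1* had 0.

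Of 9 cytosolic nucleic acid and NOD sensors, 0 passed in edgeR with or without the block or in DESeq2, and 0 had an unadjusted p under 0.05 in edgeR without the block. Their log2 fold changes ran from -0.12 for *Dhx58* to 0.25 for *Cgas*. The DNA sensor adaptor *Sting1* measured 47.3 ± 6.09 CPM in control against 54.6 ± 6.46 CPM in NaCl, and the RNA sensor *Ifih1* at 41.9 ± 5.75 and 42.9 ± 5.50 CPM. No change of these sensors was detectable at this depth and number of mice.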

How the data were processed

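BMDM libraries of 3 mice, unstimulated or with NaCl, were compared. Per the labels and the methods, the authors trimmed single-end reads with fastp 0.20.0 and aligned them with STAR 2.7.10b to mm10, and their deposited table holds unnormalized read counts for each gene. They also deposited a normalized signal, the count divided by a DESeq2 size factor, which was used here for gene symbols and chromosomes. The methods pair mm10 with GENCODE vM32, an annotation of another build, so positions come from GENCODE M21 and RefSeq on GRCm38.

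Counts were tested here with edgeR 4.0.16 (glmQLFit and glmQLFTest, TMM, total count of at least 10, no further term), with Benjamini-Hochberg adjustment over 15903 genes and a threshold of 0.05. CPM values use TMM-scaled library sizes. The mouse pairs the samples by the labels, and deviations of same-mouse libraries correlated across genes at 0.43, 0.15 and 0.22 for mice 1, 2 and 3. Between libraries of different mice the correlations ran from -0.35 to 0.12, so mouse 2 was only a little above the highest of them. A blocked fit, with the mouse as a term, stands beside each result that it changes. Alternatives were DESeq2 1.42.0, the block, median-ratio size factors, total count scaling, 2 other filters, limma-voom (limma 3.58.1), thinning to 4088065 counts, and leaving out libraries or mice. The scripts were tested on simulated data. Exon lengths, overlaps and 75-base windows came from GENCODE M21, in which 97.4% of the genes were found by identifier.

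The 10 genes and all lists were chosen with earlier results of these data known. Named are the 10 genes, list genes past the threshold, and per list up to 4 genes with the largest change among those called with the block at a mean of at least 50 counts, besides genes named as chosen later or to show that a list member did not pass. Counting error aside, precision is limited by 3 mice. R 4.3.3 and Python 3.11.15 were used.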

Additional observations from a re-analysis of the deposited data

How the results depend on the processing

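The direction of *Cd14*, *Tlr2*, *Tlr7*, *Tlr9*, *Tlr13*, *Ly96* and *Myd88* was the same in all 20 fits, and the number of calls was not. Against 1 higher and 0 lower of the 10 genes, the replicate block gave 4 and 1, as did DESeq2 with the block, a minimum total count of 1 and the block with thinning. Leaving out 1 library or 1 mouse left 0 to 5 higher and 0 to 2 lower. Over all genes, the 76 higher and 28 lower became 245 and 155 in DESeq2, 452 and 354 once DESeq2 held the block, 732 and 684 with edgeR's replicate block, 362 and 300 at a minimum of 1, 49 and 17 after thinning, and 543 and 409 when the block was added to thinning. Leaving out 1 library left 8 to 123 and 0 to 46, and with the replicate block, leaving out mice 1, 2 and 3 left 469, 758 and 715 higher and 417, 661 and 585 lower. Other TLRs and co-receptors lower were 1 with the block and 0 to 2 when leaving out. Folding and transport genes were 2 higher and 1 lower with the block, also after thinning, 1 and 1 in DESeq2 with the block, 1 lower with a minimum of 1, and 0 to 2 and 0 to 1 when leaving out. Adaptors lower were 1 with the block, in DESeq2 with it and after thinning with it, and 0 to 1 when leaving out. Kinases and ligases lower were 2 with the block, 1 in DESeq2, with and without it, with a minimum of 1 and after thinning with the block, and 0 to 2 when leaving out. Inhibitors higher were 3 with the block, 2 in DESeq2, in DESeq2 with the block, with a minimum of 1 and after thinning with the block, and 0 to 5 when leaving out, with 0 to 1 lower. Against 1 higher and 0 lower lipopolysaccharide-induced genes, the block gave 3 and 5, DESeq2 2 and 1, blocked DESeq2 3 and 1, a minimum of 1 gave 3 and 4, thinning 0 higher, the block with thinning 3 and 3, and leaving out 0 to 4 and 0 to 4. The remaining lists and settings stayed within 1.5 times. The sign of genes that did not pass turned for *Tlr4* without NaCl replicate 1 (-0.0048, and up to 0.48 without another library), for *Tlr8* without NaCl replicate 2 (0.17), control replicate 1 (0.22) or, with the block, mouse 2 (0.071), with -0.38 as its lowest value, and for *Unc93b1* with the block and without mouse 2 (-0.0046). The cause was not tested.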
